A study of Mus musculus with 10 samples.

Results

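The heat shock chaperones examined here are the 10 mouse genes Hspa1a, Hspa1b, Hspa8, Hspa5, Hspa4, Hsph1, Hsp90aa1, Hsp90ab1, Hsp90b1 and Dnajb1, which were chosen by name. Of these, 8 of the 15899 genes measured were analysed, and Hspa1a and Hspa1b, the stress-inducible cytosolic HSP70 genes, were not analysed here. The experiment asked which RNAs are carried by MEX3A, an RNA-binding protein of neural stem cells, by RNA immunoprecipitation and sequencing (RIP-seq). The source was neurospheres of the adult brain subependymal zone (mice aged 10 weeks per the labels), floating aggregates of neural stem cells (NSCs) grown with EGF and FGF, and RNA was recovered with an antibody against the FLAG peptide. The FLAG groups came from Mex3aFLAG/FLAG mice, in which the FLAG peptide is fused to the endogenous MEX3A protein, and the WT groups came from untagged cultures of the same background, so that their libraries hold the RNA carried over without the tag. Each genotype was processed after formaldehyde crosslinking (n = 2 FLAG and n = 2 WT) and natively, without any crosslink (n = 3 FLAG and n = 3 WT). The libraries were primed with random hexamers without selection of poly(A) RNA, and input RNA was not analysed here.

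Heat shock chaperones bind unfolded proteins and release them in cycles driven by ATP. HSP70 proteins take their clients from J-domain proteins of the HSP40 family and are reset by nucleotide exchange factors of the HSP110 family, while HSP90 proteins act later on clients such as kinases and receptors. Hspa8 and Hsp90ab1 encode the constitutive cytosolic forms, which are abundant in most cells, including neural cells. Hspa5 (BiP) and Hsp90b1 (GRP94) serve protein folding in the endoplasmic reticulum (ER) and belong to the unfolded protein response. Heat shock factors and ER stress factors raise these genes through short elements in their promoters.

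Sequences that could bear on binding by MEX3A were read from the annotated 3′ UTRs (GENCODE M21 on GRCm38). The MEX-3 recognition element searched on the transcript strand has a first unit of 4 bases (A, G or T, then G or T, then AG), 0 to 8 bases of any kind, and a second unit of 4 bases (T, then A, C or T, then TA). Hspa5 held 9 such elements in a 3′ UTR of 1434 nt (6.28 per kb) and Hsp90aa1 held 6 in 935 nt (6.42 per kb). Hspa4 held 8 in 1798 nt, Dnajb1 held 4 in 1834 nt and Hsph1 held 2 in 963 nt. Hspa8, Hsp90ab1 and Hsp90b1, whose 3′ UTRs measure 83, 240 and 262 nt, held 0. The pattern is the consensus of MEX-3 in C. elegans, and the authors state that how mammalian MEX3 proteins recognize their targets is still unresolved. The first element of each 3′ UTR that has any is given here, with both units in capitals and 6 flanking bases on each side.
Hspa5: cttcttGGAGaTTTAtttagc
Hspa4: gatttcTTAGtcagttTTTAggggac
Hsph1: acagacTGAGTCTAtttata
Hsp90aa1: gatactATAGgTTTAactcaa
Dnajb1: tgtgtgGGAGgttcttgtTTTAtctgta
On GRCm38 these lie at chr2:34776597-34776617 (plus strand, Hspa5), chr11:53261494-53261519 (minus strand, Hspa4), chr5:149617423-149617442 (minus strand, Hsph1), chr12:110691377-110691397 (minus strand, Hsp90aa1) and chr8:83611184-83611211 (plus strand, Dnajb1). Over the 8 chaperones there were 3.84 elements per kb (95% exact Poisson interval 2.57 to 5.52, which covers counting error only), against 2.80 per kb over 12110 coding genes, a value inside that interval. At least 1 element was found in 5 of 8 chaperones (62.5%) and in 77.2% of the coding genes. A match is a match of letters only.

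The promoters were read as a description of sequence, and the part of their elements in the values of these libraries was not tested. RefSeq promoter windows on GRCm38.p6, from 250 bases before to 50 bases after a start site, were given for 7 of the 10 genes, namely Hspa1a, Hspa1b, Hspa5, Hspa4, Hsph1, Hsp90b1 and Dnajb1. The heat shock elements GAANNTTC and TTCNNGAA were searched (each reads the same on both strands), as was a longer element of 3 alternating GAA and TTC units spaced by 2 bases, which contains both of them. The ER stress element is CCAAT, then 9 bases of any kind, then CCACG, searched on both strands. The matches are shown with 5 flanking bases and the defining bases in capitals.
Hspa1a and Hspa1b: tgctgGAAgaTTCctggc
Hsph1: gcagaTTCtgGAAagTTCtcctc
Hsph1, second match: aatctTTCtcGAAggctc
Hspa5: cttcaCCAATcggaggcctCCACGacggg
Hsp90b1: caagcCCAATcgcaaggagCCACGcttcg
Hsp90b1, second match, read from the other strand: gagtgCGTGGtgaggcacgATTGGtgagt
They lie at chr17:34972248-34972265 (Hspa1a), chr17:34959330-34959347 (Hspa1b), chr5:149636283-149636305 and chr5:149636357-149636374 (Hsph1), and chr10:86705633-86705661 and chr10:86705528-86705556 (Hsp90b1), all written on the minus strand, and at chr2:34772020-34772048 (Hspa5, plus strand). Among all 32851 windows, 7.86% held GAANNTTC, 8.52% held TTCNNGAA, 0.603% held the longer heat shock element and 0.119% held the ER stress element. The windows of Hspa4 and Dnajb1 held none of these letters.

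The values are the deposited log2 values, whose distribution is nearly the same in each library, so a value states a gene's place among the RNAs of its library and not a number of reads. The depth of each library is unknown. FLAG native replicates 1 and 3 stood apart from the others before any comparison, with 329 and 178 genes tied at their lowest value against at most 3 in the other libraries, and the main values that rest on them are given below with and without them. The cultures carried the markers of NSCs, with 11 of 12 listed markers analysed at a median percentile of 88.3 among all genes, led by Egfr and Slc1a3. Of the markers of neurons, oligodendrocytes, microglia, endothelium and ependyma, 4 of 6, 2 of 5, 3 of 5, 4 of 5 and 1 of 4 were analysed, at median percentiles of 30.4, 52.4, 63.8, 23.0 and 19.8. The summed level of the neuron markers, in log2, ran from 3.65 to 4.47 in the FLAG libraries and from 4.89 to 5.37 in the WT libraries, and that of the endothelial markers from 3.93 to 4.72 and from 3.31 to 3.82. The neuron sum was led by Rbfox3, which had the highest mean of its list (3.87) and a log2 difference of -1.31 over all libraries. Snap25, Syt1 and Syp were at -0.64, -0.52 and -0.26. The endothelial sum was carried by Flt1 (log2 difference of 2.23 over all libraries, FLAG minus WT, adjusted p = 0.0468 by limma), while Pecam1, Tek and Kdr were at -0.58, -0.74 and -1.09 and the median of the 4 was -0.66. The median log2 difference of the NSC markers, FLAG minus WT, was 0.38 with crosslinking, 0.61 in native conditions and 0.52 over all libraries, beside 0.34, 0.73 and 0.59 for the chaperones. Over all libraries 8 of 11 NSC markers had an unadjusted p under 0.05 by limma, as did 21.1% of all genes. Their log2 difference was above 0 for 8 of 11, while Egfr, Slc1a3 and Prom1 were at -0.33, -0.44 and -0.35. Without both FLAG native replicates 1 and 3 the NSC marker medians were 0.03 in native conditions and 0.29 over all libraries, beside 0.02 and 0.18 for the chaperones. The part of these markers in the results below was not tested. Mex3a mRNA itself was higher in each FLAG library than in each WT library of its protocol (log2 difference of 1.73 over all libraries, adjusted p = 0.0789 by limma, and 0.99 without both FLAG native replicates 1 and 3).

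The levels of the chaperones differed widely, with 7 of 8 above the middle of all genes. The mean over the 10 libraries placed Hsp90ab1 at the 90.9th percentile and Hspa8 at the 89.9th, while Dnajb1, the J-domain partner of HSP70, was at the 23.5th. The deposited values are not divided by length (r = 0.495 between mean log2 value and log2 exonic length across 12270 coding genes, which are not independent replicates). These percentiles and those of the markers above are therefore not corrected for length. The chaperones were put in order after subtracting log2 of the exonic length in kb. On that log2 level per kb, averaged over the 4 groups, the order was Hsp90ab1 (4.43), Hspa8 (3.78), Hsp90b1 (3.47), Hspa4 (3.47), Hspa5 (2.63), Hsp90aa1 (2.34), Hsph1 (1.23) and Dnajb1 (-0.50). Hsp90ab1 was above Hspa8 in 10 of 10 libraries, and the same held for Hspa4 over Hspa5, for Hsp90aa1 over Hsph1 and for Hsph1 over Dnajb1. The exonic length merges all annotated exons, at 4301 nt for Hspa8, 2999 nt for Hsp90ab1 and 7266 nt for Hsph1. Their longest coding transcripts measure 2394, 2520 and 3802 nt, so the order and these counts depend on the length used. Hspa8 was above Hsp90b1 in 8 libraries and Hspa5 above Hsp90aa1 in 8, differences smaller than the SD of the genes over the libraries (0.56 to 0.82). Hsp90b1 and Hspa4 could not be ordered, each being the higher in 5 libraries. All 8 chaperones were thus also present in the WT libraries, in which no MEX3A carries the tag.

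Some of these levels are uncertain because copies share sequence with the genes. Of the windows of 75 nt (the read length) in the longest coding transcript of Hspa8, 68.0% also occurred in another gene, in all 9 pseudogenes, and 53.1% of those of Hsp90aa1 also occurred in 3 pseudogenes. The share was 0.736% in Hsp90ab1 and 0 in Hspa5, Hspa4, Hsph1 and Dnajb1. In Hsp90b1 it was 2.14%, shared with Gm25745, which overlaps Hsp90b1 on the same strand and is not a copy elsewhere. Hspa1a and Hspa1b, each of 1 exon on chromosome 17, shared 54.2% and 55.8% of their windows, chiefly with each other. How the authors counted reads that map to several places or whether counting used the strand is not given in the sources used here. Hspa8 hosts the small nucleolar RNAs Snord14c, Snord14d and Snord14e, whose values had r of -0.40, -0.50 and 0.19 with those of Hspa8 over the 10 libraries. Hsp90b1 overlaps 1810014B01Rik on the opposite strand, and the values of both had r = 0.994 over the same libraries (0.972 without FLAG native replicates 1 and 3), and without the strand the reads of both cannot be told apart.

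The first comparison asked whether the chaperone mRNAs were higher in the FLAG pulldown than in the untagged background. In native conditions all 8 had a higher FLAG mean and with crosslinking 7 did, but none of the 8 passed the test in either protocol or over all libraries. The native distances from WT rested on FLAG native replicates 1 and 3, in which all 8 chaperones lay above the WT mean, while in FLAG native replicate 2 they lay between -0.17 and 0.06 of it on the log2 scale, apart from Dnajb1 at 0.51. A higher mRNA level in the cells and a stronger carry-over through the pulldown cannot be told apart in these libraries, nor can more cells of a type and more RNA per cell.

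**Figure D1:**
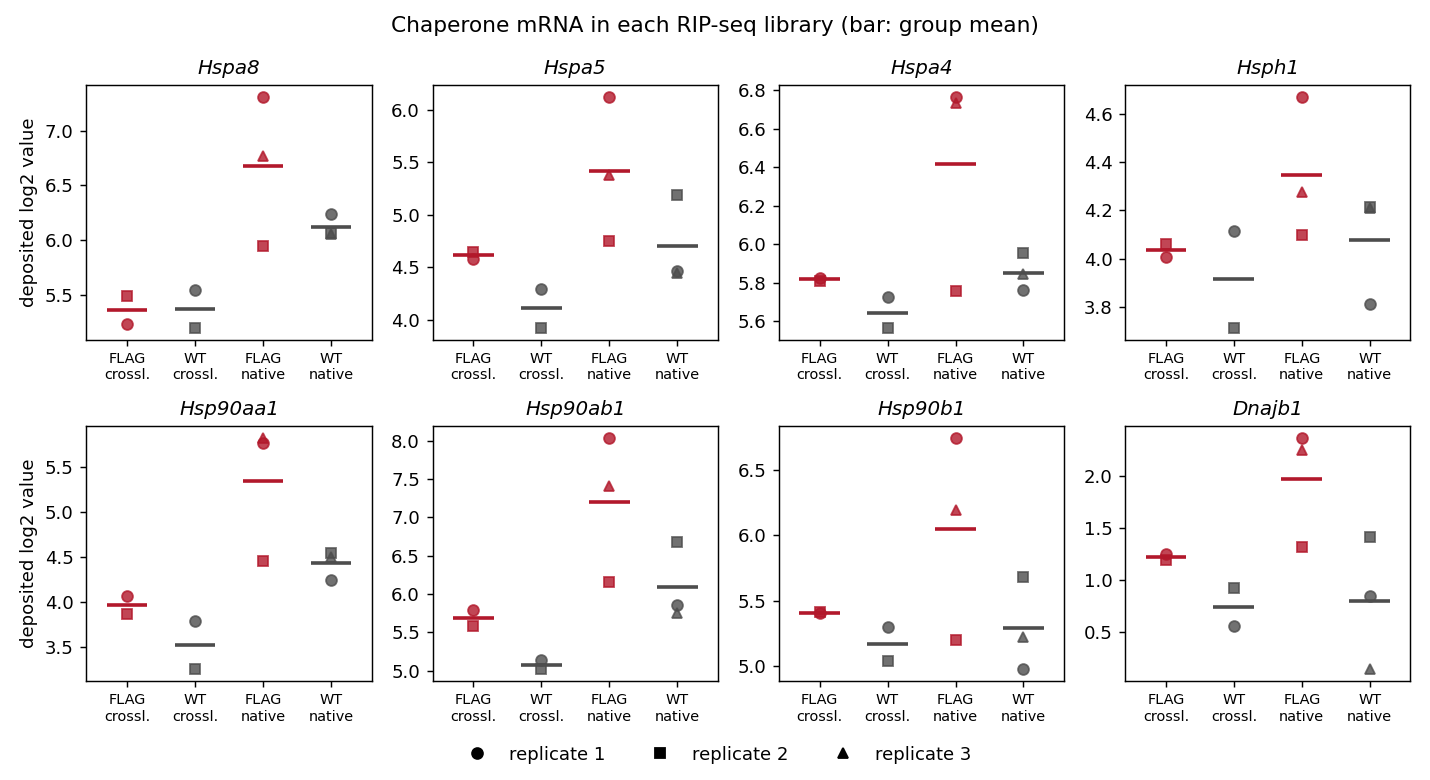
Deposited log2 value (y axes, a scale of its own for each gene) of the 8 chaperones in each of the 10 libraries, by group (x axes), with symbols for the replicate number and bars at the group means. FLAG native replicates 1 and 3 lie above FLAG native replicate 2 in every panel, as with 7.31 and 6.77 against 5.95 for Hspa8.

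Among the HSP70 genes, Hspa8 (chr9:40800984-40810087) stood at 5.23 and 5.49 in the FLAG crosslinked libraries and at 5.55 and 5.20 in the WT crosslinked libraries (replicates 1 and 2). In native conditions it stood at 7.31, 5.95 and 6.77 in FLAG and at 6.24, 6.06 and 6.05 in WT (replicates 1 to 3). FLAG and WT overlapped in both protocols, FLAG native replicate 2 being below all 3 WT values. Its log2 difference, FLAG minus WT, was -0.01 (SE 0.17) with crosslinking and 0.56 (SE 0.31, adjusted p = 0.36 by limma) in native conditions.

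Hspa5 (chr2:34771970-34777547), the HSP70 of the ER, stood at 4.58 and 4.65 in FLAG and at 4.29 and 3.92 in WT after crosslinking. Its native values were 6.13, 4.75 and 5.38 in FLAG and 4.46, 5.19 and 4.45 in WT. The crosslinked groups did not overlap, whereas the native groups did, WT replicate 2 being above FLAG replicate 2. The log2 difference was 0.51 (SE 0.16, adjusted p = 0.581 by limma) with crosslinking and 0.72 (SE 0.36, adjusted p = 0.33) in native conditions.

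The HSP110 genes encode proteins that exchange the nucleotide of HSP70. Hspa4 ranged from 5.56 to 5.82 over the 4 crosslinked libraries and stood at 6.77, 5.76 and 6.73 in native FLAG against 5.76, 5.95 and 5.84 in native WT. Hsph1 ranged from 3.71 to 4.12 with crosslinking and from 3.81 to 4.67 in native conditions. The native log2 differences were 0.57 (SE 0.27) for Hspa4 and 0.27 (SE 0.23) for Hsph1, the smallest of the 8, with adjusted p-values of 0.323 and 0.519 by limma.

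Of the HSP90 genes, Hsp90ab1 (chr17:45567775-45573271) stood at 5.79 and 5.58 in FLAG and at 5.14 and 5.02 in WT after crosslinking. Its native values were 8.04, 6.16 and 7.40 in FLAG and 5.86, 6.68 and 5.75 in WT. The crosslinked groups were apart by more than their spread, and in native conditions FLAG replicate 2 fell below WT replicate 2. The log2 difference of 0.60 with crosslinking (SE 0.11) had the lowest unadjusted p-value of the 8 (0.00598) and an adjusted p of 0.425 by limma, and that in native conditions was 1.10 (SE 0.45, adjusted p = 0.281).

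Hsp90aa1 (chr12:110690605-110702728), the inducible cytosolic form, stood at 4.07 and 3.87 in FLAG and at 3.79 and 3.26 in WT after crosslinking. Its native values were 5.77, 4.45 and 5.83 in FLAG and 4.25, 4.55 and 4.50 in WT. FLAG native replicate 2 again lay within the WT range. The native log2 difference was 0.92 (SE 0.35, adjusted p = 0.274 by limma). Hsp90b1 in the ER was nearly the same in both crosslinked FLAG libraries (5.41 in each) and higher there than in WT (5.30 and 5.04), and its native values of 6.75, 5.20 and 6.20 in FLAG overlapped those of 4.98, 5.68 and 5.23 in WT.

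Dnajb1 (chr8:83608193-83612653) had the largest native difference and the lowest level. It stood at 1.25 and 1.19 in FLAG and at 0.55 and 0.93 in WT after crosslinking. Its native values were 2.36, 1.31 and 2.24 in FLAG and 0.85, 1.41 and 0.14 in WT. The WT native libraries were the most scattered for this gene (SD 0.63, n = 3), and the log2 difference of 1.17 (SE 0.44) had an adjusted p of 0.273 by limma.

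A gene was called at an adjusted p under 0.05 and a log2 difference of more than 0.58 in size. No chaperone was called in the crosslinked comparison, where 0% of the 15899 genes were called, in the native comparison (0.107% of genes) or in the fit of all libraries that adjusts for the protocol (0.497% of genes). At an unadjusted p under 0.05 there were 2 of 8 chaperones with crosslinking (7.7% of all genes), 3 of 8 in native conditions (16.7%) and 4 of 8 over all libraries (21.1%). The 4 were Dnajb1 (log2 difference 0.90), Hsp90ab1 (0.90), Hsp90aa1 (0.73) and Hspa5 (0.63), with adjusted p-values from 0.157 to 0.194. Without both FLAG native replicates 1 and 3 they were at 0.49, 0.37, 0.26 and 0.31, with adjusted p-values from 0.597 to 0.638. The median log2 difference of the 8 was 0.34 with crosslinking, 0.73 in native conditions and 0.59 over all libraries, beside -0.02, -0.04 and -0.03 over all genes. The crosslinked median was 0.14 without WT crosslinked replicate 2. Without FLAG native replicate 1 the native median was 0.40 and that over all libraries 0.38, and the latter was 0.18 without both FLAG native replicates 1 and 3 and 0.16 with array weights. Without FLAG native replicate 2 the native median was 1.11. With crosslinking the FLAG values were all higher than the WT values for 6 of 8 chaperones, all but Hspa8 and Hsph1, as for 19.1% of all genes with 2 libraries a group. In native conditions this held for 0 of 8 (8.62% of all genes), and in both protocols for 0 of 8 (4.84%).

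**Figure D2:**
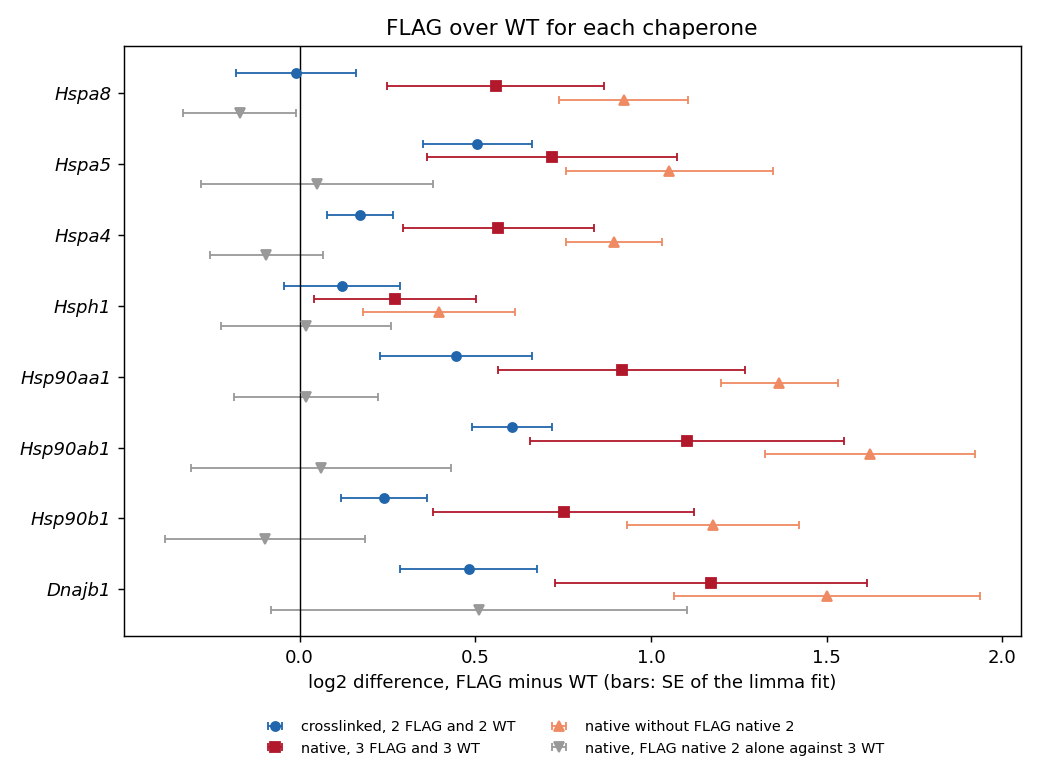
Log2 difference between FLAG and WT (x axis) for each chaperone (y axis) with SE bars from the limma fit, in crosslinked libraries, in native libraries, and in native libraries with FLAG native replicate 2 left out or with that replicate as the only FLAG library. The native estimates move from 1.10 to 1.62 for Hsp90ab1 without FLAG native replicate 2 and to 0.06 with that replicate alone.

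The native comparison turned on 1 library. Without FLAG native replicate 2, 7 of 8 chaperones were called higher in FLAG, all but Hsph1, where 9.12% of all genes were called higher. The log2 differences were then 1.62 for Hsp90ab1 (SE 0.30, adjusted p = 0.0136 by limma), 1.37 for Hsp90aa1 (SE 0.17, adjusted p = 0.00468), 0.90 for Hspa4 (SE 0.14, adjusted p = 0.00802) and 0.40 for Hsph1 (SE 0.22, adjusted p = 0.213). Over all libraries, leaving out the same library gave calls for Hsp90aa1 and Hsp90ab1 (2 of 8, with 3.25% of all genes called higher). With FLAG native replicate 2 as the only FLAG library, which is then assumed to vary like the WT libraries, the native median of the 8 chaperones was 0.02. Weights by library variance (limma array weights), which gave FLAG native replicate 2 the lowest weight (0.292), called 7 chaperones in the native comparison, where 22.5% of all genes were called in either direction. Weights estimated anew over all libraries were lowest for FLAG native replicates 1 and 3 instead (0.124 and 0.159, against 1.27 for FLAG native replicate 2) and called Dnajb1 alone (0.65, adjusted p = 0.00484), where 13% of all genes were called in either direction. Hsp90ab1 (0.47, adjusted p = 0.0138) and Hspa5 (0.37, adjusted p = 0.0153) then passed on p but not on size, and Hsp90aa1 was at 0.17 (adjusted p = 0.274) in place of 0.73.

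**Figure D3:**
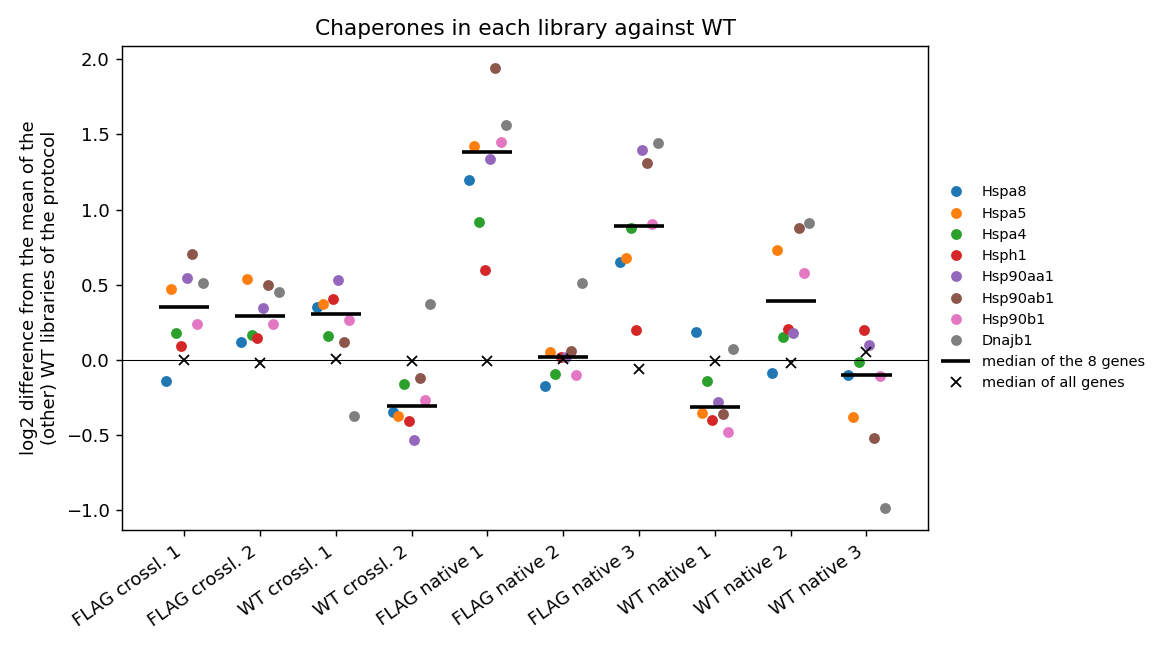
Log2 difference of each chaperone (coloured points) from the mean of the WT libraries of the same protocol, with a WT library set against the other WT libraries, for each of the 10 libraries (x axis). Black bars are medians of the 8 genes (1.38 in FLAG native 1, 0.02 in FLAG native 2 and 0.89 in FLAG native 3), and crosses are medians of all genes, which stay within 0.063 of 0.

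Library by library, the median distance of the 8 chaperones from WT was 0.36 and 0.29 in the crosslinked FLAG libraries. In FLAG native replicates 1, 2 and 3 it was 1.38, 0.02 and 0.89, with 8, 5 and 8 chaperones above the WT mean. Among the WT native libraries the median was -0.32, 0.39 and -0.10, each set against the other 2, so the untagged libraries also differed from each other. FLAG native replicates 1 and 3, the libraries with the tied low values, also had positive correlations across genes between their distance from WT and the exonic share of the gene body (r of 0.167 and 0.136, against 0.0263 in FLAG native replicate 2). In WT native replicates 1 and 3 r was 0.130 and -0.170. The part of the exonic share in the raised values of single libraries was not tested. Of the 8 chaperones, 7 have a larger exonic share than the median coding gene (16.8%), from 26.4% in Hsp90b1 to 75.8% in Hspa5, with Hspa4 at 13.6%. Once the trend of a library on this share was removed, the median difference of the 8 in native conditions was 0.64 in place of 0.73, and 0.46 in place of 0.59 over all libraries. Single genes moved more, with Hspa5 at 0.27 in place of 0.63 over all libraries, Dnajb1 at 0.53 in place of 0.90 and Hspa8 at 0.16 in place of 0.33.

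The test of the difference itself between the native and the crosslinked effect called 0 of 8 chaperones and 0% of all genes. The native effect was the larger for 8 of 8, by 0.15 (Hsph1) to 0.69 (Dnajb1) on the log2 scale, with an adjusted p of at least 0.97 by limma and 0 of 8 at an unadjusted p under 0.05. The median of this difference over the 8 was 0.49, and it was 0.19 without FLAG native replicate 1, 0.93 without FLAG native replicate 2, 0.32 without FLAG native replicate 3 and -0.30 without both FLAG native replicates 1 and 3, so its direction rested on those libraries. With crosslinked and native libraries of the same number and genotype as a block it was 0.24.

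The second comparison asked how the protocol moved the chaperones. All 8 had a lower mean after crosslinking than in native conditions in both genotypes, although within FLAG this did not hold for Hspa4 (0.06) and Hsp90b1 (0.21) without both FLAG native replicates 1 and 3. Over all libraries Hspa8 and Hsp90aa1 passed the test, at 0.489 and 0.451 times their native levels, and both calls depended on single libraries and on the pairing. The WT libraries, which hold no tagged protein, had the same direction for 8 of 8.

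**Figure D4:**
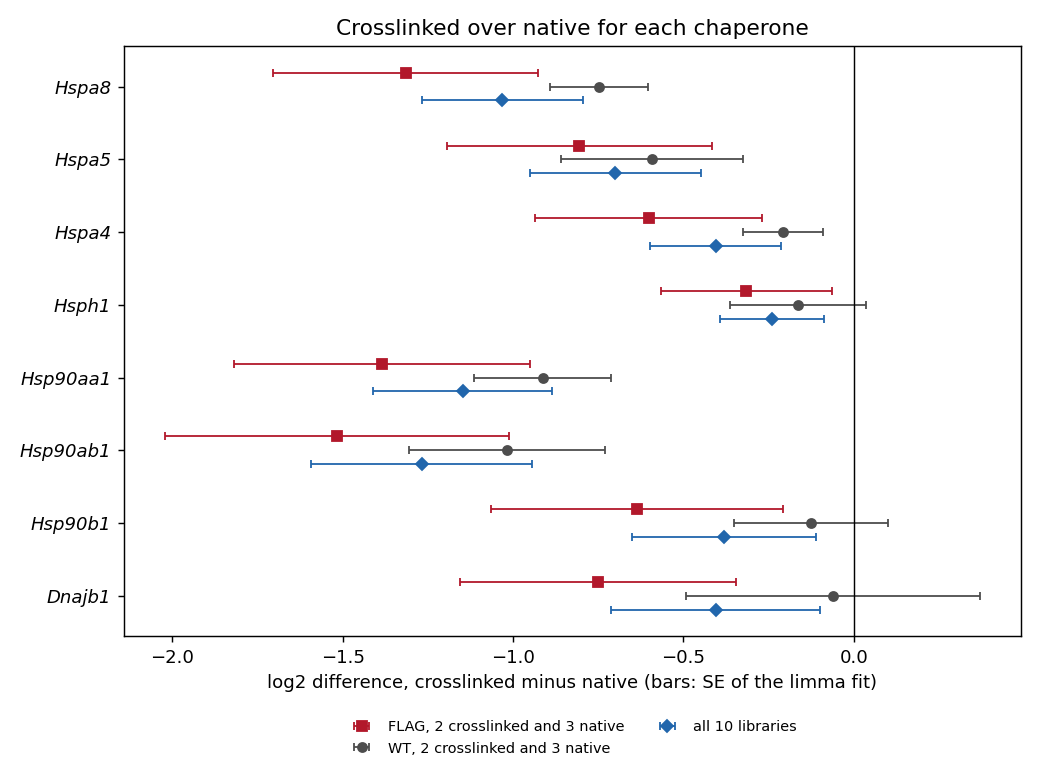
Log2 difference between crosslinked and native libraries (x axis) for each chaperone (y axis), with SE bars from the limma fit, within FLAG, within WT and over all 10 libraries. All estimates are below 0, and those of Hspa8, Hsp90aa1 and Hsp90ab1 are the lowest in each comparison.

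In WT, Hspa8 stood at 5.55 and 5.20 after crosslinking and at 6.24, 6.06 and 6.05 in native conditions. The WT groups did not overlap for 5 of 8 chaperones (Hspa8, Hspa5, Hspa4, Hsp90aa1 and Hsp90ab1), as for 12.5% of all genes, and the FLAG groups did not overlap for 6 of 8, now with Hsph1 and Dnajb1 and without Hspa4, as for 13.5% of all genes. In both genotypes the crosslinked libraries lay below the native ones for Hspa8, Hspa5, Hsp90aa1 and Hsp90ab1 (4 of 8, against 6.92% of all genes).

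With the genotype as a covariate, the log2 difference was -1.03 for Hspa8 (SE 0.24, adjusted p = 0.0348 by limma) and -1.15 for Hsp90aa1 (SE 0.26, adjusted p = 0.035), the 2 of 8 chaperones called lower, where 2.94% of all genes were. Hsp90ab1 had a larger difference with a larger error (-1.27, SE 0.32, adjusted p = 0.0547), and Hspa5 followed (-0.70, SE 0.25, adjusted p = 0.143). Hspa4, Dnajb1, Hsp90b1 and Hsph1 lay between -0.41 and -0.24 with adjusted p-values from 0.268 to 0.511. The median of the 8 was -0.55 (-0.28 without both FLAG native replicates 1 and 3 and -0.24 with array weights), beside 0.06 over all genes, and 4 of 8 had an unadjusted p under 0.05 (20.4% of all genes). The part of the sequence that Hspa8 and Hsp90aa1 share with pseudogenes was not tested.

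Crosslinked and native libraries with the same number and genotype deviated together, and with these pairs as a block neither call was kept, Hspa8 at -1.02 (adjusted p = 0.0992) and Hsp90aa1 at -1.01 (adjusted p = 0.071). The crosslinked library was the lower in 4 of 4 pairs for Hspa8, Hsp90aa1, Hsp90ab1, Hspa5 and Dnajb1, by 0.46 to 2.08 on the log2 scale for Hspa8. It was the lower in 3 of 4 for Hspa4 and Hsph1 and in 2 of 4 for Hsp90b1. The share of all genes lower in 4 of 4 pairs was not computed, so these counts are a description only. Both calls were also lost when any of 5 single libraries was left out, namely either FLAG crosslinked replicate, FLAG native replicate 3, WT native replicate 1 or WT crosslinked replicate 2. The log2 differences themselves stayed between -1.03 and -0.92 for Hspa8 and between -1.21 and -1.02 for Hsp90aa1 in these 5 fits, with adjusted p-values from 0.06 to 0.143. Leaving out FLAG native replicate 1, WT native replicate 2 or WT native replicate 3 kept Hspa8 alone, and leaving out WT crosslinked replicate 1 kept Hsp90aa1 alone. Without FLAG native replicate 2, 4 of 8 were called lower, where 4.83% of all genes were. Without both FLAG native replicates 1 and 3 the calls of Hspa8 (-0.69, adjusted p = 0.0176) and Hsp90aa1 (-0.76, adjusted p = 0.0364) stood.

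Within a genotype the test called no chaperone. In WT the log2 differences were -0.75 for Hspa8 (SE 0.14, adjusted p = 0.173 by limma), -0.91 for Hsp90aa1 and -1.02 for Hsp90ab1, and 0.0377% of all genes were called. In FLAG they were -1.32, -1.38 and -1.52 (-0.59, -0.49 and -0.48 without both FLAG native replicates 1 and 3), and 0.0692% of all genes were called. In each genotype these 3 of 8 had an unadjusted p under 0.05, against 10.7% of all genes in WT and 9.15% in FLAG. With the replicate numbers as a block, Hspa8 and Hsp90ab1 were called in FLAG (2 of 8, where 2.38% of all genes were called lower). The median of the 8 within FLAG was -0.78, and it was -0.50 without FLAG native replicate 1 and -0.11 without both FLAG native replicates 1 and 3. In WT the median was -0.40, and -0.25 without WT native replicate 2.

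The chaperones varied together. Over the 10 libraries the 28 pairs of the 8 genes had Pearson r from 0.582 to 0.974 with a median of 0.865, a description over libraries that share the raised FLAG native replicates 1 and 3. Over the 8 other libraries r ran from -0.166 to 0.930 with a median of 0.598. Among 7568 genes with a mean log2 value of at least 3, the 3 most like Hsp90ab1 were Atp5b (r = 0.996), Eef2 (0.995) and Eef1a1 (0.994), which encode a subunit of ATP synthase and translation elongation factors. The 3 most like Hspa8 were Rpl4, a ribosomal protein gene (0.989), Tlcd1 (0.985) and Asah1 (0.982). For Hspa5 they were Pa2g4 (0.979), Copb2, of the coat of Golgi vesicles (0.975), and Hsp90ab1 (0.974). Over the 8 libraries other than FLAG native replicates 1 and 3 these 9 values of r lay between 0.907 and 0.986.

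The other genes of the chaperone network were read from 8 lists, in which 82 of 88 genes were analysed. None was called in any FLAG over WT comparison, and the median log2 difference over all libraries was 0.22, against 0.59 for the 8 chaperones. At an unadjusted p under 0.05 there were 21 of 82 over all libraries (25.6%), near the share of all genes (21.1%). The other ER folding factors had a median of 0.53 over 10 genes, with Canx, the lectin chaperone calnexin, farthest from 0 (0.81, SE 0.29, adjusted p = 0.172). The genes farthest from 0 in the other lists were Hspa13 of the HSP70 family (1.20, adjusted p = 0.102), Dnajb9, a J-domain protein of the ER (1.12), Bag5 (0.83), Hspb8 (0.87), Hspd1, the mitochondrial HSP60 (0.62), Fkbp4, an HSP90 cofactor (0.60), and Hsbp1, which binds heat shock factor (0.74, adjusted p = 0.114), all with a higher mean in FLAG. Without both FLAG native replicates 1 and 3 the median of the 82 was 0.05 and that of the ER folding factors 0.13, with Canx at 0.29, Hspa13 at 0.71, Dnajb9 at 0.74, Bag5 at 0.50, Hspb8 at 0.90, Hspd1 at 0.26, Fkbp4 at 0.15 and Hsbp1 at 0.67.

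Between the protocols, 5 of the 82 were called lower after crosslinking (2.94% of all genes) and 1 was called higher (1.17% of all genes). Hsbp1 fell by 1.62 on the log2 scale (SE 0.21, adjusted p = 0.00225 by limma), from 2.74 to 3.98 in native libraries to 1.01 to 2.22 after crosslinking. Hspe1, the mitochondrial HSP10, fell by 1.41 (adjusted p = 0.0148), and Fkbp4 fell by 1.26 (adjusted p = 0.0246). Cct6a, annotated as a subunit gene of the cytosolic chaperonin, went the other way and rose by 1.94 (SE 0.28, adjusted p = 0.00384), and its gene body also holds the small nucleolar RNA genes Gm23245 and Snora15. The other 2 called lower were Ahsa1, an HSP90 cofactor, which fell by 0.87 (adjusted p = 0.0149) and kept its call with the pairs as a block (adjusted p = 0.0403), and Bag1, an exchange factor of HSP70, which fell by 0.98 (adjusted p = 0.0441) and lost it (adjusted p = 0.139). Both were named after their values were seen. The calls of Hsbp1, Hspe1, Fkbp4 and Cct6a were kept with the pairs as a block, with adjusted p-values of 0.0239, 0.0484, 0.0409 and 0.0418. Each left-out library kept the calls of Hsbp1 and Cct6a (10 of 10), while those of Hspe1, Fkbp4, Ahsa1 and Bag1 were kept in 7, 5, 8 and 4 of 10. Cct6a was also called in the WT libraries alone, as 1 of the 82, where 0.0377% of all genes were called.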

How the data were processed

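The submitters' processing notes name cutadapt, Trimmomatic, HISAT2, featureCounts and limma on GRCm38, and the methods name DESeq2 for normalization. The deposited matrix (15899 genes) is in log2 units and gives no depth, so counting error is unknown. Libraries were grouped by the labels, and the replicates are separate cultures. These values entered limma 3.58.1 under R 4.3.3 unchanged (lmFit, then eBayes using a mean-variance trend), with Benjamini-Hochberg adjustment over all genes. Same-numbered crosslinked and native libraries of a genotype, processed in parallel per the methods, deviated together (r of 0.178, 0.154, 0.30 and 0.388) and were taken as pairs. Exons and 3' UTRs came from GENCODE M21 (15864 of 15899 genes found), and motifs were letter patterns.

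Members and lists were chosen with earlier results of these data known. All members are named. From the 8 other lists, the called genes (at most 3 a direction) and the gene with the largest FLAG over WT difference are named, and for Hspa5, Hspa8 and Hsp90ab1 the 3 genes of highest correlation. The cell type markers called over all libraries were Rbfox3 and Flt1 in FLAG over WT, and Fabp7, lower after crosslinking. Alternatives were a pseudocount of 1, other scaling, a filter at a mean of 3, moderation without trend, array weights, a fit of 4 groups, a replicate block, each library left out, and the other motif form and UTR. Removal of exonic share or GC and length trends (20 bins), leaving out FLAG native replicates 1 and 3, the block within genotype and a crossed pairing were chosen after seeing the data. Python 3.11.15 drew the figures with matplotlib 3.10.9. Protein sequences were not used here.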

Additional observations from a re-analysis of the deposited data

How the results depend on the processing

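Of the log2 differences of single chaperones over all libraries, 4 changed sign under an alternative. Array weights gave Hspa8 -0.0499 and Hsph1 -0.0034 for FLAG over WT, and Hsph1 0.00577 and Hsp90b1 0.063 for crosslinked over native. Without both FLAG native replicates 1 and 3, Hspa8 was also at -0.0789 for FLAG over WT. None of these 4 was called, and the cause was not tested.

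The number of chaperones called in the native FLAG over WT comparison was 7 with array weights (22.5% of all genes called, either way) and ran from 0 to 7 as each library was left out, and over all libraries it was 1 with array weights (13% of all genes) and ran from 0 to 2. For crosslinked over native within FLAG it was 3 with array weights (6.49% of all genes), 2 with the replicate block (2.73%), and 0 to 4 as each library was left out (6.09% without FLAG native replicate 2, which gave the 4). Over all libraries it was 0 without the trend in the moderation (4.06% of all genes), 0 with the replicate block (1.92%) and 0 with the block within genotype (2.80%), 3 with array weights (12.8%), with the exonic share trend removed (5.82%) or with the GC content and length trends removed (4.01%), each adding Hsp90ab1 (adjusted p of 0.00492, 0.0103 and 0.0458), and 0 to 4 as each library was left out. No other block that was run changed a count of called chaperones, among them the random block within genotype for FLAG over WT over all libraries (0 called, median 0.61, 0.0943% of all genes) and the block within genotype for the difference between protocols (0 called), both chosen after seeing the data. FLAG and WT libraries of the same number deviated in opposite directions after crosslinking (r = -0.274), and the crossed pairing called 0 chaperones. Groups of 2 or 3 libraries were not tested for outlying values, and because the depth is unknown, no counting interval can be given for low values such as those of Dnajb1. The MEX-3 recognition elements of the chaperones came to 2.65 per kb with the other form of the motif and 3.89 with merged 3' UTR exons, inside the interval of the value given above.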
